A study of Homo sapiens with 12 samples.

Results

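Eukaryotic initiation factor 3 (eIF3) is represented here by 10 of its subunit genes, EIF3A, EIF3B, EIF3C, EIF3D, EIF3E, EIF3F, EIF3G, EIF3H, EIF3I and EIF3L. They were taken by gene name from the authors' 4 deposited tables of m6A differences, because METTL16 is reported to bind eIF3a and eIF3b. The 10 genes had 110 of the 296568 listed windows, on 10 of 16417 listed gene names. By table these were 38 of 79372 and 19 of 71406 windows for guide sgMETTL16-1 (replicates 1 and 2), and 31 of 75788 and 22 of 70002 for guide sgMETTL16-2. N6-methyladenosine (m6A) had been mapped on polyadenylated RNA of NOMO-1, a human acute myeloid leukaemia cell line, by sequencing input RNA and the RNA that an m6A antibody pulled down (immunoprecipitation, IP). The 3 conditions were METTL16 knockout with lentiviral guide sgMETTL16-1, METTL16 knockout with guide sgMETTL16-2, and control cells with guide sgNS, with 2 input and 2 IP libraries each, 12 in all. All cells carried a lentivirus and had been selected and grown in puromycin, with no further treatment. The labels describe selected populations, do not say whether a line was grown from 1 clone, and do not say that replicate numbers stand for separate cultures, so replicates may be technical.

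Each table compares 1 knockout guide with sgNS for 1 replicate number, and lists transcript windows of 1 or more blocks on GRCh38. The fold enrichment and its FDR compare IP with input. The log2 fold change compares that ratio between knockout and sgNS, and negative values are read here as a loss of m6A in knockout cells. The tables do not state this convention, and the opposite one would turn every direction below. Windows are called enriched, or called lower or higher, at a deposited FDR under 0.05. Depth per library is unknown, and no value has a replicate error of its own, so the only repeat of a guide is its second table. Tables of 1 replicate number may share their sgNS libraries, which is not stated, so calls shared by the 2 guides within a replicate number are not independent. The median log2 fold change over all windows was 0 in each table, and over all enriched windows it was -0.04 and 0.13 for sgMETTL16-1 and 0.13 and 0.14 for sgMETTL16-2. METTL16 itself had 5 to 7 windows in each of the authors' deposited tables and 0 called ones, with a lowest FDR of 0.133, and such windows do not measure how much METTL16 RNA is left. Of 14 myeloid and monocytic markers, 13 had a window in every table and KIT in some. Some markers of other lineages were listed too, so a listed window does not identify the cells. The RNA is bulk RNA, so a change in some of the cells and a smaller change in all of them cannot be told apart.

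eIF3 is the largest initiation factor. It holds the small ribosomal subunit ready for messenger RNA, keeps the 2 ribosomal subunits apart and links to the cap-binding factors. Its octamer core is built from PCI-domain subunits (a, c, e, l and others) and MPN-domain subunits (f and h). Subunits b, g and i form a mobile module that is anchored by eIF3a, and eIF3d can bind the cap of chosen messenger RNAs. eIF3 has also been reported to bind m6A near the 5′ end of messenger RNAs, and in cancers METTL16 has been described as a cytosolic partner of eIF3a and eIF3b apart from its nuclear methyltransferase role. The m6A measured here lies on the messenger RNAs that encode the subunits, not on eIF3 itself.

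The sequence at the 5′ end of EIF3B is shown because a window starts there in all 4 tables and was called higher in 3 of them. It is taken from RefSeq (GRCh38.p14), chr7:2354577-2354856, plus strand, with 250 bases before and 30 after the first transcribed base at 2354827. Capitals mark the 18 printed bases that lie in the window, which starts at base 13 of that transcript:
EIF3B: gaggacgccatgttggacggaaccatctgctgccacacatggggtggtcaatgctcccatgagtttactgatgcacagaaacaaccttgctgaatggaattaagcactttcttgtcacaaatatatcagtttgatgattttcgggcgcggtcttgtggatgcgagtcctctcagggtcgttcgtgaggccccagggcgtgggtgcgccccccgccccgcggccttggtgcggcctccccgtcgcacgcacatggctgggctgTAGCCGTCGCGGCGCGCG
The 300-base RefSeq promoter entry of EIF3B has 61.0% G and C, against a median of 58.7% (quartiles 47.0% and 68.0%) over 35116 promoters. Messenger RNAs of subunits e, f and h are known to begin with a terminal oligopyrimidine (TOP) tract, which ties translation to growth signals. The start of EIF3F is shown for that tract, and the start of EIF3D because its sequence begins alike. Each run has 50 bases before and 30 after the first transcribed base (RefSeq, GRCh38.p14), EIF3D at chr22:36529137-36529216 on the minus strand and EIF3F at chr11:7987287-7987366 on the plus strand. Capitals mark the unbroken pyrimidines from the first transcribed base:
EIF3D: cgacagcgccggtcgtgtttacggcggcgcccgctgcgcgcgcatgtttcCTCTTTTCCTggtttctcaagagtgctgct
EIF3F: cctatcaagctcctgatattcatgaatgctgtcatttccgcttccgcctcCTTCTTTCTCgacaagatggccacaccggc
Both start with a C and run for 10 pyrimidines. A start with C and an unbroken pyrimidine run at least as long was found in 270 of the 35116 promoter entries (0.769%). Of the 10 genes, 5 (EIF3B, EIF3C, EIF3D, EIF3F and EIF3I) matched this RefSeq table. Among these 5, the METTL16 target motif TACAGAGAA, searched on both strands, was in 0 of 5, against 0.316% of all promoters. GGACT, a common m6A motif, was on either strand in 3 of 5, against 44.2% of all. Of the 300 bases of an entry, 250 lie before the first transcribed base, so nearly all of each transcript was not searched. At a share of 0.316%, a count of 0 in 5 was nearly certain and says nothing about TACAGAGAA in the messenger RNAs.

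m6A was detected over input on 9 of the 10 genes in at least 1 table, and on EIF3F in none. Enriched windows were 16 of 38 (42.1%) and 12 of 19 (63.2%) for sgMETTL16-1, where 8.1% and 11.9% of all windows were enriched. For sgMETTL16-2 they were 15 of 31 (48.4%) and 10 of 22 (45.5%), where 10.2% and 12.3% of all windows were enriched. The depth behind each window is unknown, and its part in these shares was not tested. EIF3A led in every table: its most significant window had an IP over input FDR of 1e-27 and 5.01e-47 for sgMETTL16-1 and of 1.26e-55 and 3.16e-46 for sgMETTL16-2 in the authors' deposited tables. EIF3G, which encodes an RNA-binding subunit, came next in each, with 1.23e-07 and 6.31e-20 for sgMETTL16-1 and 3.16e-15 and 1e-16 for sgMETTL16-2 in the authors' deposited tables. Together with them, EIF3B, EIF3H, EIF3I and EIF3L were enriched in all 4 tables, EIF3C and EIF3D in 3, and EIF3E in the 2 replicate 1 tables alone. Enrichment was modest in size, with a median fold of 1.41 to 1.46 over the enriched windows of these genes, against 1.78 to 1.92 over all enriched windows. Windows lay within 1000 bases of the annotated 3′ end of their gene in 18.4% and 26.3% (sgMETTL16-1) and 19.4% and 22.7% (sgMETTL16-2), against 25.8% and 24.3%, and 25.8% and 24.7%, of all windows. RefSeq gene ends were used, which include the longest isoforms, and exons were not annotated here.

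**Figure D1:**
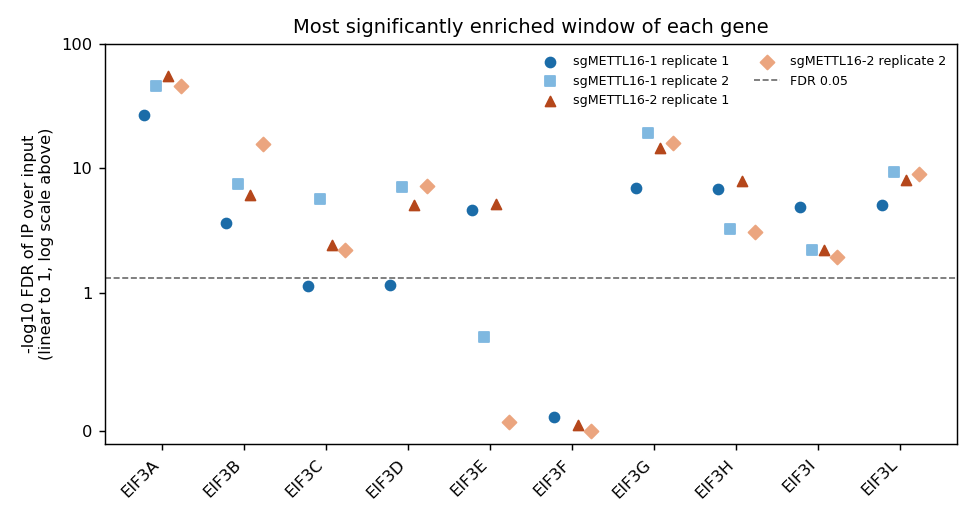
For each of the 10 genes, the window with the lowest FDR of IP over input is plotted as −log10 of that FDR, linear to 1 and on a log scale above it, with 1 point per deposited table and a dashed line at 0.05. EIF3A lies highest in each table, EIF3F lies below the line wherever it is listed, and EIF3E lies above it in the replicate 1 tables only.

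Of the 110 windows, 16 were called, on 5 genes: 9 lower, on EIF3A, EIF3E and EIF3H, and 7 higher, on EIF3A, EIF3B and EIF3L. All 9 lower calls came from replicate 1 tables. With sgMETTL16-1 there were 4 lower windows of 38 and 1 higher in replicate 1 (10.5% and 2.63%, against 0.281% and 0.0743% of all windows). Its replicate 2 table had 0 lower and 2 higher of 19 (10.5% higher, against 0.167% lower and 0.583% higher of all). With sgMETTL16-2 there were 5 lower and 2 higher of 31 in replicate 1 (16.1% and 6.45%, against 0.965% and 0.875%), and 0 lower and 2 higher of 22 in replicate 2 (9.09% higher, against 0.149% lower and 0.586% higher of all). Calls were more frequent among enriched windows of any gene. There, lower calls made up 4 of 16 in replicate 1 of sgMETTL16-1 (25% against 2.79% of all enriched windows, with 0 higher against 0.809%) and 4 of 15 in replicate 1 of sgMETTL16-2 (26.7% against 4.38%). Replicate 2 had 0 lower calls among enriched windows with either guide, against 0.766% of all for sgMETTL16-1 and 0.676% for sgMETTL16-2. At such shares, 0 among 12 and 10 windows was likely and says nothing about these genes. Higher calls among enriched windows were 2 of 12 in replicate 2 of sgMETTL16-1 (16.7% against 4.64%), and 2 of 15 and 2 of 10 for sgMETTL16-2 (13.3% against 7.38% and 20% against 4.54%). The counts are small, windows of 1 gene share its transcript, and no test over the genes was made. The median log2 fold change over their windows was -0.06 and 0.06 for sgMETTL16-1 and -0.02 and 0.12 for sgMETTL16-2, beside 0 over all windows. Fewer of all windows were enriched, so that background is unlike. Over enriched windows alone the median was -0.111 and 0.098 for sgMETTL16-1, against -0.038 and 0.134 for all genes. For sgMETTL16-2 it was 0.075 and 0.083, against 0.125 and 0.135. It thus lay below that of all enriched windows in each table, which was not tested.

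**Figure D2:**
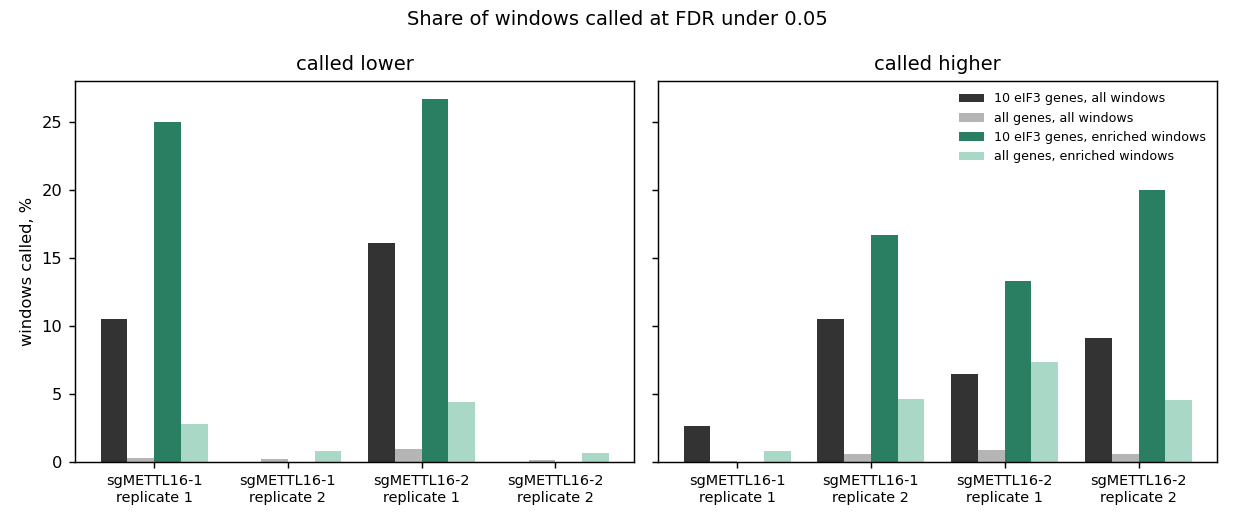
Bars give the percent of windows called lower (left) and higher (right) at an FDR under 0.05 in each deposited table, for the 10 eIF3 genes and for all genes, over all windows and over enriched windows. Lower calls on eIF3 genes appear in the 2 replicate 1 tables, at 10.5% and 16.1% of their windows, and are 0 in both replicate 2 tables. There, 0.167% and 0.149% of all windows were called lower, so 0 was likely with so few windows.

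Between the 2 tables of a guide, 10 windows of these genes could be matched for sgMETTL16-1 and 12 for sgMETTL16-2. With sgMETTL16-1, 5 of the 10 had the same sign in both replicates and 5 the opposite, and 0 were called in both, where 0.0449% of all matched windows were lower and 0.02% higher in both. With sgMETTL16-2, 8 of 12 had the same sign, 0 were lower in both and 2 were higher in both, 1 on EIF3A and 1 on EIF3B, where 0.0613% and 0.529% of all matched windows were called in both. When the median of a table's enriched windows was subtracted from its fold changes (the shift, with a two-sided p), 0 of the 2 were called in both. A two-sided p alone left both of them. The windows called lower in replicate 1 were cut or listed differently in replicate 2 and had no match there. At this overlap of 0.5 the 0 lower in both was therefore fixed in advance with either guide. It does not show that these calls failed to repeat. With an overlap of 0.3 the count lower in both was also 0 for each guide. The EIF3H windows of replicate 2, 238 bases inside the 564 of the main replicate 1 window, were below 0 and not called.

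EIF3B, the WD40-repeat scaffold that anchors subunits g and i, lay above 0 in every table at its 5′ end. The RefSeq gene spans 2354086 to 2380745 on the plus strand of chromosome 7. Its 5′ window runs from 2354839 to 2360726 (to 2360816 in replicate 1 of sgMETTL16-2) in 2 blocks, the first of them carrying most of its 599 to 689 bases. Its log2 fold change stood at 0.09 (FDR = 0.655) and 0.28 (FDR = 0.0191) for sgMETTL16-1 in the authors' deposited tables. For sgMETTL16-2 it was 0.34 (FDR = 0.000617) in replicate 1 and 0.34 (FDR = 0.001) in replicate 2 in the authors' deposited tables. All 4 values were above 0, and replicate 1 of sgMETTL16-1 was the low one. With a two-sided p the call in replicate 2 of sgMETTL16-1 was lost (FDR = 0.0513), and those of sgMETTL16-2 were kept. Fold enrichment of this window over input was 1.44 and 1.6 for sgMETTL16-1 and 1.8 and 1.98 for sgMETTL16-2 in the authors' deposited tables. Shifting by the enriched median left the fold changes above 0, at 0.14 in replicate 2 of sgMETTL16-1 and at 0.21 in each table of sgMETTL16-2, and none of the 3 was called, with an FDR of 0.221 or more. The last EIF3B window before the 3′ end, from 2380563 to 2380742, was at 0.49 (FDR = 0.0912) and 0.26 (FDR = 0.65) for sgMETTL16-2 in the authors' deposited tables and was not called. Over the 842 bases of EIF3B that had a window in all 4 tables, the mean was 0.10 and 0.23 for sgMETTL16-1 and 0.35 and 0.29 for sgMETTL16-2.

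EIF3A, the largest subunit and the PCI scaffold of the complex, carried calls in all 4 tables, and their direction differed between the replicates of sgMETTL16-1. The RefSeq gene spans 119033670 to 119080817 on the minus strand of chromosome 10. All called windows lie between 119035868 and 119050652, in the part of the gene towards its 3′ end. In replicate 1 of sgMETTL16-1, 2 windows were called lower in the authors' deposited table, at 119037138 to 119042039 (-0.32, FDR = 0.0012) and at 119049847 to 119050652 (-0.38, FDR = 0.000339). In replicate 2 of that guide, 1 window of 1859 bases in 7 blocks, from 119035958 to 119050622, spanned nearly the whole stretch and was called higher in the authors' deposited table, at 0.31 (FDR = 3.98e-18). The windows were cut differently in the 2 tables and are therefore not counted as matched. For sgMETTL16-2, the authors' deposited tables had a higher window in replicate 1 (119035928 to 119042549, 0.20, FDR = 0.000631) and in replicate 2 (119035868 to 119050622, 0.28, FDR = 2e-15). Fold enrichment of the 2 long windows of replicate 2 was 1.73 for sgMETTL16-1 and 4.13 for sgMETTL16-2 in the authors' deposited tables. Beside the higher window in replicate 1 of sgMETTL16-2, the EIF3A window of that table with the lowest IP over input FDR (119042638 to 119050622) was at 0.08 (FDR = 0.59, not called) in the authors' deposited table. Base by base, 1745 bases of EIF3A had a window in all 4 tables. Their mean log2 fold change was -0.18 and 0.28 for sgMETTL16-1 and 0.14 and 0.25 for sgMETTL16-2. In replicate 1 of sgMETTL16-1, 661 of these bases were in a lower window, whereas 1474 were in a higher window in each replicate 2 table and 1082 in replicate 1 of sgMETTL16-2. Replicate 1 of sgMETTL16-1 is thus the table below 0, and the other 3 lie above it. After the shift, the higher call of replicate 1 of sgMETTL16-2 was lost (0.07, FDR = 1) and the other 4 EIF3A calls were kept. The most 5′ window, ending at 119058280 for sgMETTL16-1 and at 119058250 for sgMETTL16-2, had no call. It stood at -0.15 and 0.16 with sgMETTL16-1, and with sgMETTL16-2 at 0.00 and 0.13, in the authors' deposited tables.

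**Figure D3:**
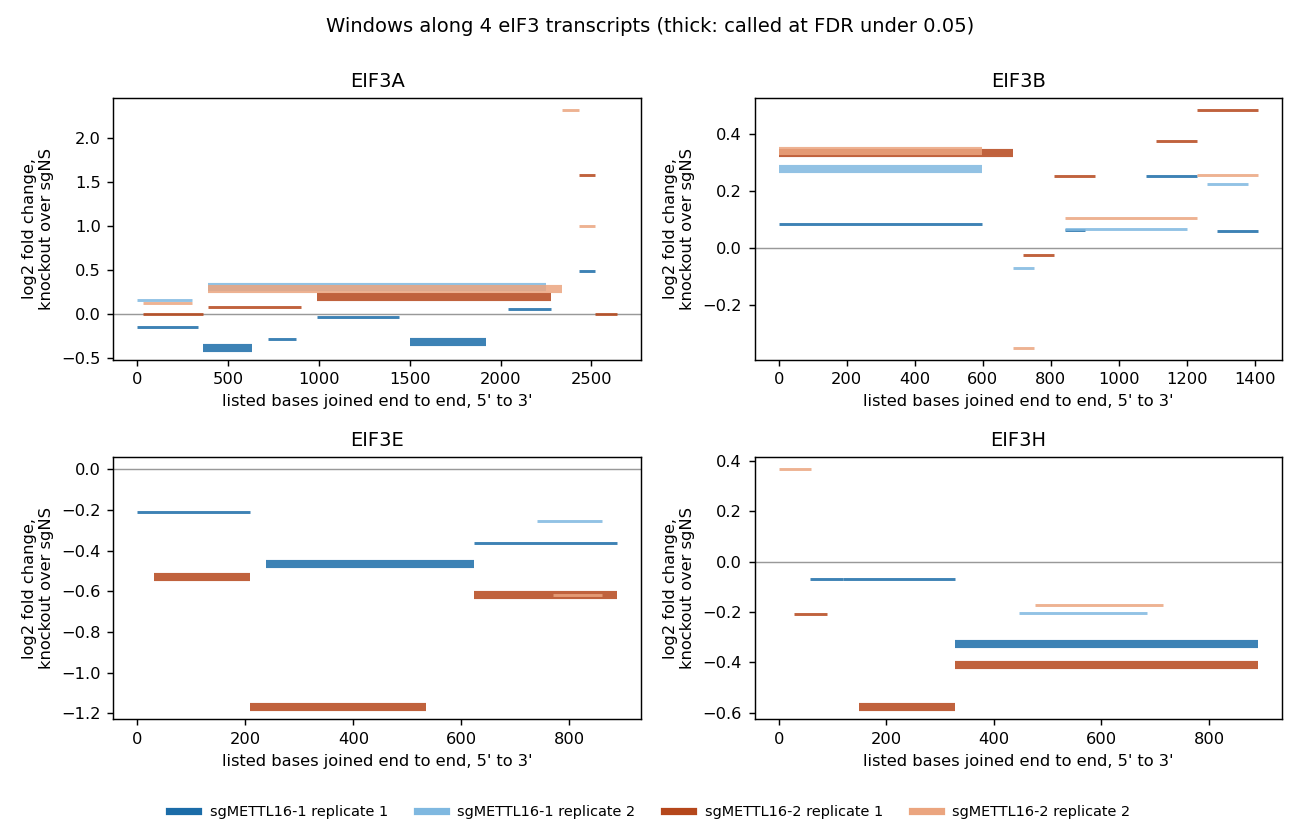
Each line is a window block, placed along the listed bases of EIF3A, EIF3B, EIF3E or EIF3H joined end to end from 5′ to 3′, at the height of its log2 fold change (knockout over sgNS), coloured by deposited table and thick where called at an FDR under 0.05. EIF3A has thick lines on both sides of 0, EIF3B has them above 0 at its 5′ end, and EIF3E and EIF3H have them below 0 in the 2 replicate 1 tables.

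EIF3E and EIF3H held 7 of the 9 lower calls, all in replicate 1. EIF3E encodes a PCI subunit once described as the integration site INT6. In replicate 1 of sgMETTL16-2 all 3 of its windows were called lower: 108201773 to 108203097 on chromosome 8 at -0.62 (FDR = 0.00575), 108216415 to 108228366 at -1.17 (FDR = 5.01e-17) and 108229103 to 108235082 at -0.53 (FDR = 0.0017) in the authors' deposited table. The second of these was the only called window of the 10 genes whose log2 fold change reached 1 in size. In replicate 1 of sgMETTL16-1 the corresponding windows were at -0.37 (FDR = 0.367), -0.47 (FDR = 0.000166, called) and -0.21 (FDR = 0.533) in the authors' deposited table. The first window, 557 bases from the annotated 3′ end, had a fold enrichment of 2.23 and 3.04 for the 2 guides in the authors' deposited tables of replicate 1. Enrichment was weaker at the other windows. For sgMETTL16-2 the second, at -1.17, had a fold of 1.22 (IP over input FDR = 0.00038). The third had a fold of 1.12 and was not enriched (IP over input FDR = 0.151), so m6A was not detected where it was called lower. Replicate 2 listed 1 EIF3E window per guide, of 119 and 90 bases and not enriched over input, at -0.25 (FDR = 0.658) for sgMETTL16-1 and -0.62 (FDR = 0.507) for sgMETTL16-2 in the authors' deposited tables. All 8 EIF3E values were below 0.

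EIF3H encodes an MPN subunit of the octamer. Its main window, from 116644816 to 116655877 on chromosome 8 (564 bases in 4 blocks), was at -0.33 (FDR = 4.9e-06) for sgMETTL16-1 and -0.41 (FDR = 1e-08) for sgMETTL16-2 in the authors' deposited tables of replicate 1. A second window, from 116655995 to 116658880, was called lower for sgMETTL16-2 alone, at -0.58 (FDR = 0.0012), in the authors' deposited table of replicate 1. For sgMETTL16-1 its counterpart, 116655995 to 116658910, was at -0.07 (FDR = 0.655) in the authors' deposited table, and the difference between guides was not tested. In replicate 2, shorter windows inside the main one were at -0.20 (FDR = 0.247) for sgMETTL16-1 and -0.17 (FDR = 0.419) for sgMETTL16-2 in the authors' deposited tables. The shift by the enriched median added a lower call there for sgMETTL16-1, at -0.34 (FDR = 0.014). Over the 209 EIF3H bases with a window in all 4 tables, the mean was below 0 in each, at -0.33 and -0.20, and -0.41 and -0.17. At the 5′ side, a window of 60 bases that was not enriched was at 0.37 in replicate 2 of sgMETTL16-2 (FDR = 0.504) in the authors' deposited table. EIF3E and EIF3H both lie on chromosome 8, where 0.362% and 0.276% of windows were called lower for sgMETTL16-1 (replicates 1 and 2) and 1.79% and 0.326% for sgMETTL16-2. Their fold changes were negative in all tables at the leading window, with means over the 4 tables of -0.46 for EIF3E and -0.28 for EIF3H.

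EIF3F encodes the other MPN subunit and has the TOP start printed above. It had 3, 2 and 1 windows in 3 of the authors' deposited tables and none in replicate 2 of sgMETTL16-1. None was enriched or called, and its leading window was at -0.21 (FDR = 0.655) for sgMETTL16-1 and -0.32 (FDR = 0.659) for sgMETTL16-2 in the authors' deposited tables of replicate 1. In replicate 2 of sgMETTL16-2 a window of 90 bases that starts 73 bases from the annotated gene start was at 0.14 (FDR = 0.65) in the authors' deposited table.

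The module partners of eIF3b had no call. EIF3G, whose listed windows covered up to 1038 bases of the transcript, had leading values of 0.00 and -0.01 for sgMETTL16-1 and 0.11 and -0.03 for sgMETTL16-2 in the authors' deposited tables, with an FDR of 0.22 or more. Its last block shares 116 bases with PPAN-P2RY11 and P2RY11 on the opposite strand, and although the library kit keeps strand, its use in counting is not given in the labels, so values of that block are uncertain. In replicate 1 of sgMETTL16-1 the EIF3G window of 120 bases there was at -0.17. The overlapping windows of both other genes were at -0.17 too. Elsewhere the EIF3G windows were longer, and the overlapping ones were at 0.00 and -0.01 in replicate 2 of sgMETTL16-1. For sgMETTL16-2 they were at 0.04 and 0.04, then at -0.11 and -0.10. Whether the same reads were counted on both strands was not tested. EIF3I, a WD40 subunit, had 1 enriched window in each table, ending at 32231604 on chromosome 1. That window was at 0.21 and 0.14 for sgMETTL16-1 and at 0.05 and 0.16 for sgMETTL16-2 in the authors' deposited tables, above 0 in all 4 and called in none. Its first listed window, from 32221884, starts before the RefSeq gene (32222407) and was not enriched, so its -2.58 in replicate 2 of sgMETTL16-2 (FDR = 0.78) in the authors' deposited table is given as listed.

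Among the remaining core subunits, EIF3L, a PCI subunit, had an enriched window in all 4 tables, at 37877711 to 37878010 on chromosome 22. In the replicate 2 tables it started further upstream. The authors' deposited tables put it at 0.00 and 0.02 for sgMETTL16-1 and at 0.24 and 0.06 for sgMETTL16-2, with an FDR of 0.331 or more. The 1 called EIF3L window, 37878130 to 37886783 in replicate 1 of sgMETTL16-1, was 61 bases long, was not enriched (FDR = 0.392) and was at 0.79 (FDR = 0.0437) in the authors' deposited table. It was not called with a two-sided p (FDR = 0.113). EIF3D, the cap-binding subunit, had no call. In the authors' deposited tables of replicate 1 its leading window was at -0.19 (not enriched) for sgMETTL16-1 and at 0.09 (enriched) for sgMETTL16-2, and for that guide the stretch from 36518887 was at -0.10. Also on chromosome 22, its window at 36518887 to 36519501 stood at -0.37 (FDR = 0.344) in replicate 2 of sgMETTL16-1, and the same stretch to 36519531 was at -0.23 (FDR = 0.621) in replicate 2 of sgMETTL16-2, in the authors' deposited tables.

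EIF3C, a PCI subunit that contacts the start-codon factors, had no call either. Its leading window starts at 28715374 on chromosome 16 and was at -0.20 and 0.24 for sgMETTL16-1 and at -0.02 and 0.06 for sgMETTL16-2 in the authors' deposited tables. The near-identical copy EIF3CL is listed on almost the same bases, between 28711450 and 28735218, although RefSeq places it at 28379581 to 28426418. Its values followed those of EIF3C (for the leading window -0.19 and 0.28, then 0.04 and 0.08, in the authors' deposited tables), so the 2 genes count as 1 observation. RefSeq also lists 12 pseudogenes of 4 of the 10 genes (EIF3E, EIF3F, EIF3I and EIF3L), whose reads could have been shared. The largest absolute fold changes came mostly from windows without enrichment: 7 such windows, on EIF3A, EIF3C and EIF3I, reached 1 in size on the log2 scale, and none of them was called.

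**Figure D4:**
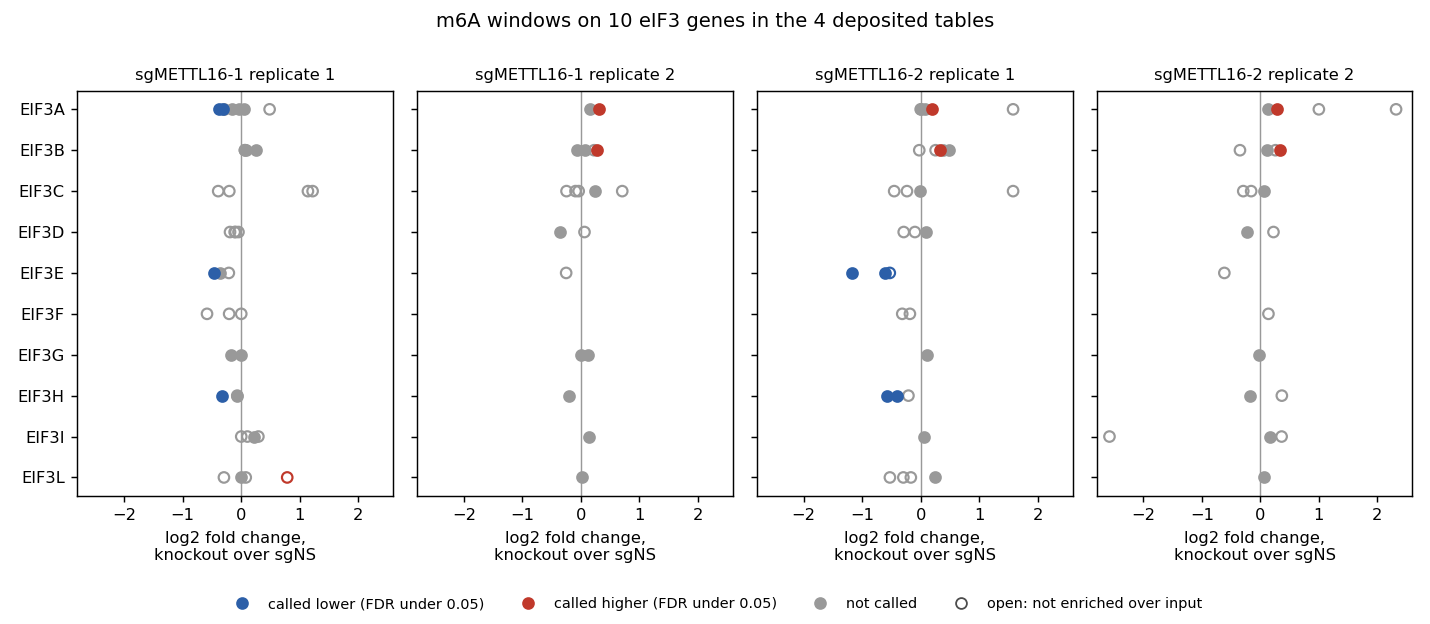
Every listed window of the 10 genes is placed by its log2 fold change (knockout over sgNS) in each of the 4 deposited tables, filled where enriched over input, open where not, blue where called lower and red where called higher at an FDR under 0.05. Blue points lie on EIF3A, EIF3E and EIF3H in the replicate 1 tables, and red points lie on EIF3A and EIF3B in all tables but replicate 1 of sgMETTL16-1, where EIF3L has an open red point.

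The other genes of translation initiation were read against lists chosen with earlier results of these data known. The remaining eIF3 genes (EIF3CL, EIF3J, EIF3K and EIF3M) had 0 calls in 3 tables and, in replicate 1 of sgMETTL16-2, 2 lower of 13 windows, 1 on EIF3J and 1 on EIF3M, which are named after their values were seen (15.4% lower, against 0.965% of all windows). Their median log2 fold change was -0.27 and 0.01 for sgMETTL16-1 and -0.33 and -0.10 for sgMETTL16-2. EIF3CL, which counts as 1 observation with EIF3C, had 4 of 15 and 6 of 11 of these windows for sgMETTL16-1. For sgMETTL16-2 it had 4 of 13 and 3 of 7. The shares and medians of this list therefore partly repeat the EIF3C values. For the 32 other initiation factors, all listed, sgMETTL16-1 gave 3 lower and 3 higher of 152 windows in replicate 1 (1.97% each, against 0.281% and 0.0743% of all windows). Its replicate 2 gave 1 lower and 2 higher of 138 (0.725% and 1.45%, against 0.167% and 0.583%). With sgMETTL16-2 there were 14 lower and 4 higher of 152 in replicate 1 (9.21% and 2.63%, against 0.965% and 0.875%). In its replicate 2 there were 2 lower and 3 higher of 130 (1.54% and 2.31%, against 0.149% and 0.586%). Their medians were -0.12 and -0.03, and -0.11 and -0.03. In both tables of a guide, EIF4A1, the RNA helicase of the cap-binding complex, was lower, at -0.59 and -0.74 for sgMETTL16-1 and -0.53 and -0.61 for sgMETTL16-2 in the authors' deposited tables. With sgMETTL16-2, the authors' deposited tables had PABPC1, the poly(A)-binding protein gene, lower at -0.64 and -0.49. The authors' deposited tables had EIF4G1, the scaffold that binds eIF3, higher with that guide, at 0.45 and 0.25. These genes are named because both tables of a guide called them. Of all matched windows, 0.0449% were lower in both for sgMETTL16-1, and 0.0613% lower and 0.529% higher in both for sgMETTL16-2. How many windows of this list could be matched is not given here, so no share is set beside these. The proteasome lid and the COP9 signalosome, which are built from PCI and MPN subunits as eIF3 is, each had 0 or 1 called window per table. For the lid these were 1 lower of 37 windows (2.7%, against 0.281% of all) and 1 higher of 22 (4.55%, against 0.583%) with sgMETTL16-1. With sgMETTL16-2 the lid had 1 lower of 32 in replicate 1 (3.12%, against 0.965%) and 0 of 24 in replicate 2. The COP9 genes had 0 calls of 39 and of 29 windows with sgMETTL16-1, and 1 lower of 34 (2.94%, against 0.965%) and 0 of 27 with sgMETTL16-2. With sgMETTL16-1 the median was -0.01 and -0.12 for the lid genes and -0.01 and 0.03 for the COP9 genes. With sgMETTL16-2 it was -0.23 and -0.12 for the lid genes and -0.11 and 0.00 for the COP9 genes.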

How the data were processed

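All values start from 4 deposited comparison tables. Per the submitters' processing notes, alignment used STAR and GRCh38; which peak caller, annotation and sgNS libraries went into each table is not given in the sources used here. Per the file headers, the authors' rows hold a fold enrichment of IP over input (a ratio), the log10 p-value and FDR of it, and the log2 fold change of the difference with its log10 p-value and FDR. Table numbers 1 and 2 were taken for replicates 1 and 2. The deposited p-values of the difference behave as one-sided ones. The members and lists were chosen with earlier results of these data known.

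Rows named for a member were read in Python 3.11.15 (pandas 2.3.3, scipy 1.17.1). Calls use the deposited FDR (under 0.05). It was more lenient than a Benjamini-Hochberg adjustment recomputed over all windows. For sgMETTL16-1 that adjustment called 264 windows against 282 and 484 against 535, and for sgMETTL16-2 1223 against 1394 and 462 against 514. Windows of 2 tables matched 1 to 1 on the same gene name and strand with at least 0.5 of the bases of each shared over blocks. The leading window of a gene is the one with the lowest IP over input FDR. All 10 members were named, and list genes only when a guide's 2 tables both called them, the same way, except EIF3J and EIF3M. Shared bases are those with a window in all 4 tables. For the shift, each table was moved by the median of its enriched windows and a two-sided p was recomputed from a normal approximation with Benjamini-Hochberg adjustment. Deposited coordinates start from 0 and are given from 1. Matching and adjustment were checked on simulated data. Depth per library is unknown. Results of the marker lists other than the myeloid one are not reported here.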

Additional observations from a re-analysis of the deposited data

How the results depend on the processing

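No paired analysis was possible because the tables hold no value per library. Of the alternatives, 98 results that answer a comparison stayed within their range and 40 moved, and for single genes 51 stayed and 8 moved. The range was a fixed ratio to the main value for counts, the spread between tables for fold changes and a confidence interval for shares. Counts of 0 could not move under settings that only remove calls, so part of the 98 was fixed in advance and the tally does not measure stability. Where the fold enrichment had to reach 2, at any FDR of IP over input, lower calls were 0 in replicate 1 of sgMETTL16-1 and 2 in replicate 1 of sgMETTL16-2, and higher calls were 0, 0, 0 and 1 in the 4 tables. Where the log2 fold change had to reach 1 in size, the only call left was 1 lower window in replicate 1 of sgMETTL16-2, and all other counts were 0. The EIF3L call, the 1 higher call in replicate 1 of sgMETTL16-1, went to 0 with an FDR of 0.01, with enriched windows alone, with a two-sided p, after the shift, and with a recomputed adjustment, which was added after seeing the data. Higher calls in replicate 2 of sgMETTL16-1 fell to 1 with an FDR of 0.01, a two-sided p or the shift, the EIF3B call being lost each time. The shift gave 1 lower call there, and 0 and 1 higher calls for sgMETTL16-2. Windows higher in both tables of sgMETTL16-2 were 2 with an overlap of 0.3, 1 with an overlap of 0.8 and 0 after the shift. Without replicate 1 or 2, calls per guide ranged over 0 to 4 lower and 1 to 2 higher for sgMETTL16-1, and 0 to 5 lower and 2 to 2 higher for sgMETTL16-2. The median log2 fold change was -0.18, -0.41 and 1.30 under that same fold criterion (replicate 1 of each guide, then replicate 2 of sgMETTL16-2). These windows include ones not enriched by FDR, and the last value rests on 2 EIF3A windows, at 0.28 and 2.32 in the authors' deposited table. The first rests only on an EIF3E window at -0.37 and an EIF3I window at 0.00 that was not enriched. The second rests only on windows of EIF3E at -0.62, EIF3H at -0.41 and EIF3C at 1.58, the last not enriched. After the shift the median was -0.074 in replicate 2 of sgMETTL16-1, and with sgMETTL16-2 -0.149 and -0.019. Enriched windows alone gave 0.075 in replicate 1 of sgMETTL16-2, against 0.125 over all enriched windows. Genes with an enriched window of at least 2-fold were 1, 1, 2 and 1. The causes were not tested, and the tables give no depth or replicate spread. Leaving out EIF3C, added after seeing the data, changed no count of calls per table.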
